A study of Drosophila melanogaster with 48 samples.

Results

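Ptth mutants were compared with wild type in 2-day pupae of Drosophila melanogaster, across every gene that reached 3 FPKM in at least 1 library of the series. The comparison takes in 6 of the 48 libraries, 3 of Ptth mutants and 3 of wild type, and 12282 of the 17558 genes in the table. Of the genes tested, 9881 reached 3 FPKM in a 2-day pupal library. The labels name the mutant stock ptth120BC2 and the wild-type stock wOB. The study's methods call their mutant Ptth120F2A, a null made by TALEN mutagenesis in the last exon of Ptth and crossed back into the wild-type background, and whether both names stand for the same stock was not settled. Each library came from poly(A) RNA of a pool of whole pupae, whose sex the labels do not give. White pupae were marked, and the 2-day pupae, called P2 here, were taken 2 days later, so the genotypes were matched by time after pupariation and not by morphology. The series also holds larvae (L3E and L3L), white pupae (WP), pupae of the other days (P1, P3 and P4) and newly eclosed adults (A0) of both genotypes. FPKM, or fragments per kilobase of transcript relative to library size, is a level corrected for gene length and library size, and the sizes used here were of the median-of-ratios kind, which also takes out library composition.

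PTTH, the prothoracicotropic hormone, is a peptide made by a few neurons of the larval brain. It acts through the receptor tyrosine kinase Torso on the prothoracic gland and prompts synthesis of ecdysone, the steroid that times moulting and metamorphosis. Flies without PTTH pupariate late and grow large. In the pupa, further ecdysone pulses set off an ordered programme in which larval tissue is broken down, cuticle is laid down in layers, and the flight muscles, eyes and other adult organs differentiate. Levels in a 2-day pupa therefore change quickly with age, and the genes of each process can be read as a series.

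The 6 libraries held 17643829 to 22392123 reads on genes. The 10 most abundant genes took 8.85 to 10.6% of those reads. Composition was not alike in all pools. The library size behind the FPKM, divided by the reads on genes, was 1.27 in wild-type pool 2, against 1.13 to 1.19 in the others. Summed over all genes tested, that pool held 426600 FPKM, against 462700 to 486500 FPKM in the others. Libraries of 1 genotype differed by far more than counting noise, with a chi-square per gene of 10.6 to 22.4 between mutant pools and of 22.8 to 62.5 between wild-type pools. The largest value was that between wild-type pools 2 and 3. The P values below for changes at P2 measure the spread between these pools. Those that compare the change at P2 with that at another day use 1 spread per gene over all 48 libraries. Bulk RNA of whole animals cannot tell fewer cells of a type apart from less RNA per cell.

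By more than 2-fold, 144 genes had another level in Ptth mutants than in wild type at an adjusted P under 0.05, which is 1.17% of the genes tested (limma on log2(FPKM + 1), Benjamini-Hochberg adjustment over all 12282 genes). Of these, 71 rose in mutants (0.578%) and 73 fell (0.594%). Without the fold limit, 633 genes rose (5.15%) and 525 fell (4.27%), and the median change of all genes tested was 0.01 on the log2 scale. The changes of the called genes ran from -4.03 to 3.29. Mutant and wild-type pools did not overlap for any of the 144 genes, against 2396 of all genes tested that lay higher in every mutant pool (19.5%) and 1869 that lay lower (15.2%). Every one of the 144 was also called, in the same direction, by limma-voom on the recovered read counts, which called 305 genes in all, 186 higher and 119 lower. Leaving out 1 pool at a time gave 44 to 120 calls, and 37 of the 144 genes were called in all 6 of those fits.

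**Figure D1:**
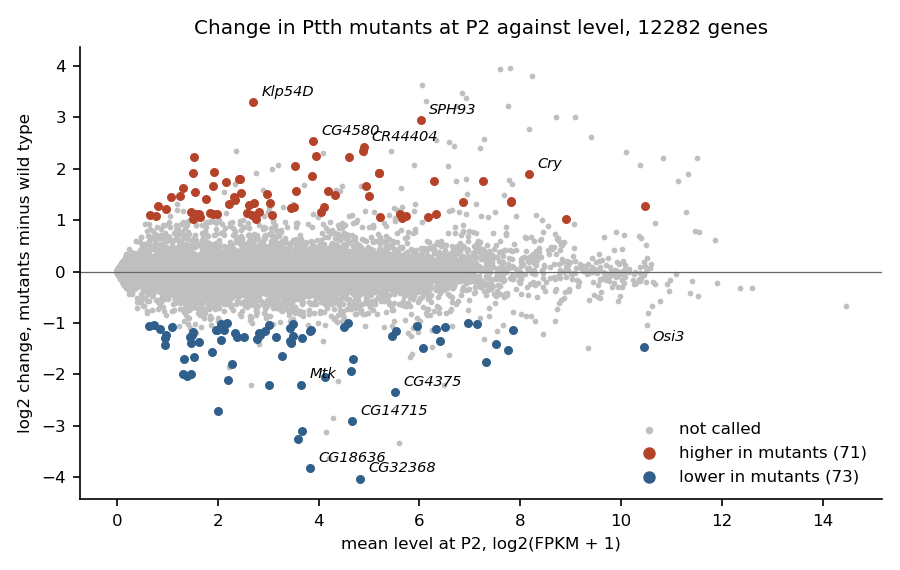
Log2 change in Ptth mutants against wild type (vertical axis) by mean level at P2 on the log2(FPKM + 1) scale (horizontal axis), 1 point a gene, 12282 genes. The 71 genes called higher and the 73 called lower are coloured; Klp54D (3.29) and CG32368 (-4.03) lie at the ends.

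Ptth itself was read first. The gene (chromosome 2L, 575711 to 576896, minus strand, BDGP6) stood at 3.82, 3.51 and 4.97 FPKM in mutant pools, against 3.42, 1.88 and 2.57 FPKM in wild-type pools. The mutant pools were all above the wild-type pools, but the log2 change of 0.50 ± 0.19 (SE) did not pass the test (adjusted P = 0.157). A lesion within the last exon need not alter the level of the transcript, so this does not check the genotype. The receptor gene tor reached at most 1.73 FPKM in any of the 48 libraries and was not tested; it stood at 1.14, 0.80 and 0.95 FPKM in mutants and at 0.63, 0.51 and 0.49 FPKM in wild type.

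None of the 15 tested genes of PTTH and Torso signalling was called. Their median change was -0.01, against 0.01 over all genes. Without the fold limit, 3 of the 15 fell, where 4.27% of all genes did. These were rl, the ERK kinase at the end of the cascade (-0.63), Ras85D, the Ras GTPase (-0.28), and drk (-0.26). The drk protein is an adaptor that couples receptors to Ras. In the fits that left out 1 pool, 0 or 1 of the list fell. The 9 genes of ecdysteroid synthesis and breakdown held no call and had a median change of 0.03. No call was made among 25 genes of the ecdysone response. At any size 2 rose and 2 fell, where 5.15% of all genes rose and 4.27% fell. Those that rose were ftz-f1, a nuclear receptor that gives tissues competence for later ecdysone pulses (0.97), and Hr46, a nuclear receptor that induces it (0.23). Those that fell were Eip71CD, an early ecdysone-induced gene (-0.82), and Eip78C, another nuclear receptor gene (-0.39). With 1 pool left out, 0 or 1 of the 25 rose and 0 or 1 fell. The 25 genes had a median change of -0.02, with 12 above 0 and 13 below. Every mutant pool was above every wild-type pool in 9 of them and below in 5, where 19.5% and 15.2% of all genes were. The sum over the list gives most weight to abundant genes. It was 702, 754 and 763 FPKM in mutant pools and 1007, 1212 and 859 FPKM in wild-type pools, without overlap. The change at P2 was lower than that at P1 in 7 of the 25 and higher in 1 (limma interaction over all 48 libraries). Over all genes 1.53% were lower and 1.48% higher.

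To place the pools on the normal course of pupal life, each was projected on the line that joins the wild-type means at P1 and P3 over all genes tested, where 0 is the wild-type P1 mean and 1 the wild-type P3 mean. At P2, mutant pools lay at 0.628, 0.635 and 0.575 and wild-type pools at 0.537, 0.502 and 0.562. All 3 mutant pools were further along than all 3 wild-type pools, and the gap was narrow, since the lowest mutant pool and the highest wild-type pool lay next to each other. The means were 0.613 ± 0.033 in mutants and 0.534 ± 0.030 in wild type (SD, n = 3 each), a difference of 0.079. A two-sided exact permutation test gave P = 0.1, the smallest that 3 against 3 can give. The line itself was drawn from wild-type P1 and P3 pools, which do not enter the P2 comparison. At P1, mutant pools lay at 0.103, 0.121 and 0.125, against -0.003, -0.030 and 0.033 in wild type. At P3 they lay at 0.931, 0.922 and 0.965, against 1.00, 0.990 and 1.01 in wild type. The wild-type pools of P1 and P3 define the line, so their means are 0 and 1 by construction. The gaps at P1 and P3 are therefore not like that at P2, and they were not tested. Within wild type at P2, pool 2 was the least advanced and pool 3 the most advanced on this line.

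**Figure D2:**
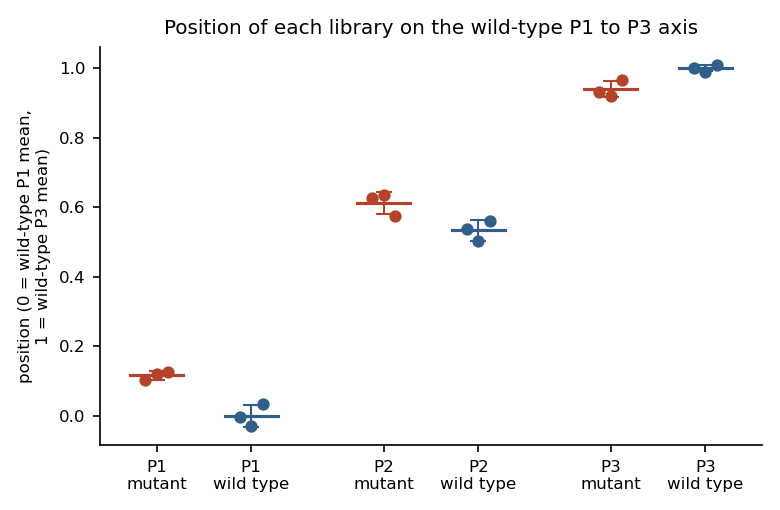
Position of each library (vertical axis, no unit) between the wild-type P1 mean, set to 0, and the wild-type P3 mean, set to 1, on pupal days P1, P2 and P3. Points are pools, lines are means and bars are SD (n = 3); at P2 the mutant mean is 0.613 and the wild-type mean 0.534.

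The called genes were also set against the wild-type course. In wild type, 39 of the 71 genes that rose in mutants were more than 2-fold higher at P3 than at P1 (54.9%), against 3552 of all genes tested (28.9%). A further 4 of the 71 were more than 2-fold lower at P3. Among the 73 genes that fell, 19 were higher at P3 (26.0%) and 9 were lower (12.3%), where 8.39% of all genes were lower. The genes that rose in mutants thus held a larger share of genes that wild type turns up between these days than the table as a whole, and the genes that fell did not.

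Contractile genes were mostly higher in mutants. The list of 37 sarcomere and flight muscle genes had a median log2 change of 0.59, and 36 of its members were above 0. In 33 of them every mutant pool was above every wild-type pool, where 19.5% of all genes were. At an adjusted P under 0.05, 18 rose, where 5.15% of all genes did, but only 2 by more than 2-fold. Summed over the list, mutant pools held 11610, 10180 and 10750 FPKM and wild-type pools 7993, 6035 and 8080 FPKM. The sums did not overlap, and wild-type pool 2 had the lowest. The count of 18 fell to between 2 and 14 when 1 pool was left out, and stood at 14 without wild-type pool 2, while the median stayed between 0.52 and 0.67.

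Mhc (2L, 16766566 to 16788766), the muscle myosin heavy chain, stood at 653, 599 and 663 FPKM in mutants, against 353, 258 and 339 FPKM in wild type. That is a log2 change of 1.02 ± 0.13 (adjusted P = 0.0207), close to the 2-fold limit, and the call was lost in each of the 6 fits that left out 1 pool. Unc-89, now named Obsc, encodes the giant M-line protein obscurin and rose by 1.05 ± 0.12 (adjusted P = 0.0156), with 64.4, 64.7 and 72.2 FPKM in mutants and 35.7, 26.9 and 33.5 FPKM in wild type. For Unc-89 the call was kept without wild-type pool 1 or 3 and lost without any of the other 4 pools. Both genes climbed steeply in either genotype: at P1 Mhc averaged 54.6 FPKM in mutants and 9.61 FPKM in wild type, and at P3 3093 FPKM in mutants and 2393 FPKM in wild type. The mutant excess of Mhc was smaller at P2 than at P1, by 1.38 on the log2 scale (adjusted P = 1.71e-07, limma interaction over all 48 libraries). Across the list, 7 of 37 genes had a change that was lower at P2 than at P1, against a background of 1.53% of all genes.

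Genes of energy metabolism showed smaller shifts. The 20 tested genes of the TCA cycle had a median change of 0.36 and 19 were above 0. In 15 every mutant pool was above every wild-type pool, where 19.5% of all genes were. At any size 10 of them rose, where 5.15% of all genes did, none past 2-fold. The largest were Acon, mitochondrial aconitase, with 356, 328 and 330 FPKM in mutants and 231, 189 and 230 FPKM in wild type (0.64 ± 0.10, adjusted P = 0.0247), and kdn, citrate synthase (0.64 ± 0.13, adjusted P = 0.0458). This count did not hold when a pool was left out, with 6 without wild-type pool 2, 1 without wild-type pool 1 and 0 without any other. All 12 glycolysis genes were above 0, with a median of 0.25 and 1 rise. The nuclear-encoded respiratory chain had medians of 0.19 for complex I (38 genes), 0.29 for complex III and cytochrome c (10 genes), 0.13 for complex IV (15 genes) and 0.26 for ATP synthase (16 genes), with a single rise at any size in complex I and another in ATP synthase. The rises in glycolysis and complex I were lost in each fit that left out 1 pool, and ATP synthase kept 1 only without wild-type pool 2.

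Most transcripts of the mitochondrial genome had estimates below 0. Of 23 tested, 21 did so and the median was -0.47. Their summed level was 37810, 35360 and 36640 FPKM in mutants, against 55220, 45440 and 59370 FPKM in wild type. Only mt:srRNA, the small ribosomal RNA of the mitochondrion, was called, at 40.6, 37.1 and 38.9 FPKM in mutants and 86.8, 70.1 and 91.0 FPKM in wild type (-1.06 ± 0.11, adjusted P = 0.0132), and that call was kept only without wild-type pool 2. The libraries were made from poly(A) RNA, and the part of that selection in these levels was not tested. The 72 mitochondrial ribosomal proteins had a median of 0.07, and the 91 cytosolic ones of -0.03.

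Cuticle genes held the highest fitted change of all genes tested, though it did not pass the test. Insect cuticle is a matrix of chitin fibres bound by structural proteins, of which the Cpr family, named for its Rebers and Riddiford chitin-binding motif, is the largest. The 90 tested Cpr genes summed to 13810, 10690 and 12680 FPKM in mutants, against 7093, 4308 and 7014 FPKM in wild type. The sums did not overlap. The median change of the list was 0.26, with 5 genes called higher and 2 lower. Cpr47Ef (2R, 11266915 to 11272575) stood at 50.6, 40.9 and 49.5 FPKM in mutants and at 13.1, 3.53 and 12.2 FPKM in wild type (2.34 ± 0.46, adjusted P = 0.0417). Cpr100A stood at 316, 276 and 377 FPKM in mutants and at 139, 86.8 and 161 FPKM in wild type (1.35 ± 0.26, adjusted P = 0.0383). In both, wild-type pool 2 was the lowest, and each call was kept only without that pool.

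The largest Cpr differences did not pass the test, and the following were picked after their values were seen. Cpr64Ac stood at 539, 265 and 362 FPKM in mutants, against 130, 3.46 and 22.3 FPKM in wild type, a log2 difference of 3.97 ± 1.23 with an adjusted P of 0.105. Cpr62Bc stood at 1992, 1521 and 1815 FPKM in mutants, against 546, 146 and 552 FPKM in wild type (2.32 ± 0.56, adjusted P = 0.0617). Cpr92F stood at 1324, 893 and 1147 FPKM in mutants and at 352, 65.1 and 253 FPKM in wild type (2.61 ± 0.65, adjusted P = 0.0656). For all 3 genes the mutant pools were above every wild-type pool, and within wild type pool 2 was lowest by several-fold. With wild-type pool 2 left out, 9 Cpr genes were called higher and 1 lower; with any other pool left out, 0 to 2 were called higher and 0 to 2 lower. Cpr64Ac averaged 5323 FPKM in mutants and 3874 FPKM in wild type a day later, and under 0.2 FPKM in either genotype a day before.

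The change of Cpr genes at P2 was set against that at the neighbouring days in 1 fit of 48 libraries. It was higher at P2 than at P1 in 25 of 90 Cpr genes and lower in 5, where over all genes 1.48% were higher and 1.53% lower. Against P3 it was higher in 21 and lower in 3, where over all genes 1.64% were higher and 0.684% lower. Counting both directions, 370 genes (3.01%) had a P2 change that differed from that at P1 and 285 (2.32%) one that differed from that at P3. The fit takes 1 spread per gene over all stages and not that at P2 alone. The SE of the difference from P1 was below that of the P2 change for Cpr47Ef (0.31 against 0.46) and above it for Cpr100A (0.34 against 0.26). In fits of only the 12 libraries of both days, 317 genes differed from P1 and 86 from P3. Cpr genes were not counted in those fits. The 24 Tweedle genes, another cuticle family, had a median of 0.03 and no call. Among 34 genes of chitin synthesis and breakdown, CG5210 (Idgf6), a chitinase-like protein, rose (1.13, adjusted P = 0.0211) and Cht4, a chitinase, fell (-1.24, adjusted P = 0.0322); neither call was kept when a pool was left out.

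Of the largest rises outside the Cpr family, 3 were in structural proteins of cuticle and lens. Acp1 (2L, 7740562 to 7741537), an adult cuticle protein, stood at 43.6, 34.9 and 38.0 FPKM in mutants and at 10.6, 4.70 and 8.26 FPKM in wild type (2.23 ± 0.27, adjusted P = 0.0177). resilin encodes the rubber-like protein of elastic cuticle and had 267, 192 and 241 FPKM in mutants, against 94.5, 41.5 and 78.1 FPKM in wild type (1.76 ± 0.33, adjusted P = 0.0367). Cry in the table is drosocrystallin, a lens protein now named Crys (2L, 11944129 to 11947131), and not the clock gene cryptochrome. It stood at 509, 391 and 442 FPKM in mutants, against 158, 69.3 and 154 FPKM in wild type (1.89 ± 0.35, adjusted P = 0.0357). Wild-type pool 2 was the lowest in each of these 3 genes, and the calls of resilin and Cry were kept only without it, that of Acp1 only without it or pool 1. At P3 the genotypes were close, with 1249 FPKM in mutants and 1227 FPKM in wild type for Cry, and 739 FPKM in mutants and 663 FPKM in wild type for resilin. The P2 change of Cry was higher than that at P1 by 2.09 and than that at P3 by 1.87 (adjusted P = 3.77e-06 and 0.000158). These P values are from the limma interaction over all 48 libraries, with 1 spread per gene across all stages. The SE of each difference was 0.30, below the 0.35 of the P2 change alone. The P values of these differences therefore do not reflect the spread of the P2 pools alone.

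Genes of the light-sensing machinery of the eye were read as 1 list. Of 22 photoreceptor and phototransduction genes, 8 rose at any size, where 5.15% of all genes did, and none fell. Of the 8, 1 rose past 2-fold. Arr2, the arrestin that shuts off rhodopsin, stood at 25.2, 20.4 and 24.1 FPKM in mutants and at 9.84, 6.11 and 12.5 FPKM in wild type (1.25 ± 0.25, adjusted P = 0.0415), a call lost in each fit that left out 1 pool. chp, chaoptin, an adhesion protein of the rhabdomere, rose by 0.88 ± 0.11 (adjusted P = 0.0191), and ninaC, the photoreceptor myosin, by 0.70 ± 0.09 (adjusted P = 0.0177). The median of the list was 0.08, and 17 of the 22 were above 0. In 10 of them every mutant pool was above every wild-type pool, where 19.5% of all genes were. Summed over the list, mutant pools held 234, 219 and 231 FPKM and wild-type pools 151, 130 and 159 FPKM. The count of 8 fell to between 0 and 5 when a pool was left out. The 15 eye pigment genes had no call, 1 rise at any size that no fit without a pool kept, and a median of -0.02.

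**Figure D3:**
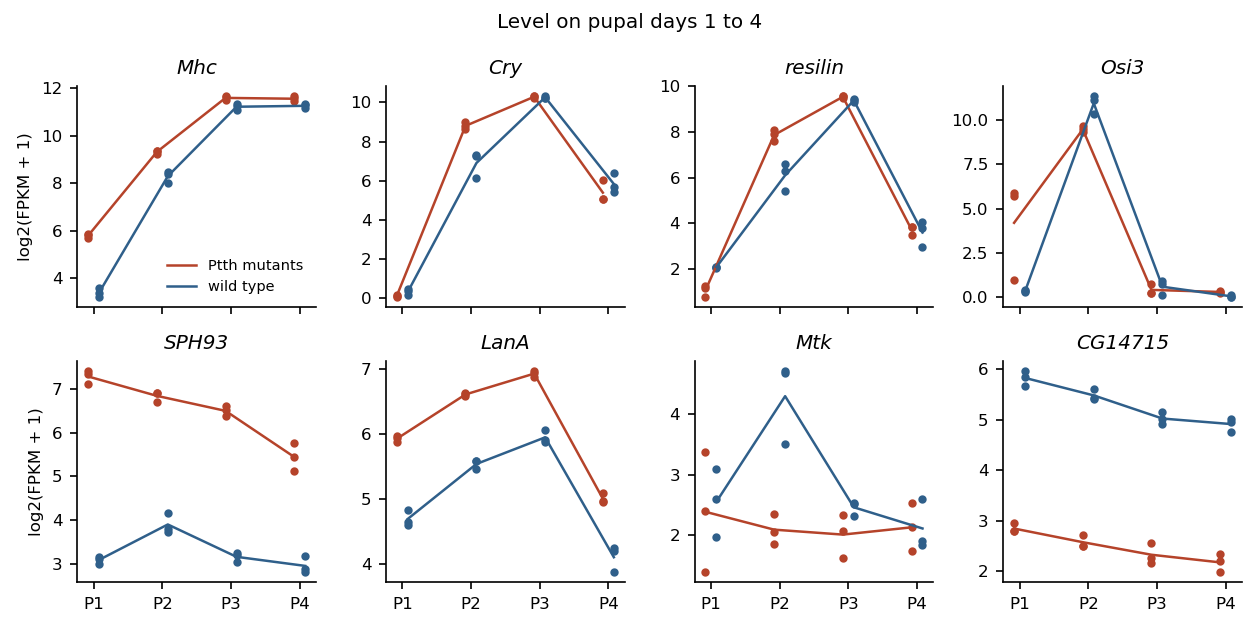
Level of 8 genes on pupal days P1 to P4 on the log2(FPKM + 1) scale; points are pools and lines join the means of Ptth mutants and wild type (n = 3 each). Mhc, Cry and resilin climb between P1 and P3 and stand higher in mutants at P2, Osi3 peaks at P2 and is lower in mutants, and SPH93 and CG14715 differ on all 4 days.

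Apical matrix genes, a list of Osiris genes with zona pellucida domain and resilin genes, were mostly below wild type at P2. Of 35 tested, 24 were below 0 and the median was -0.81. Of these 35, 2 were called higher and 4 lower. At any size 5 rose and 5 fell, where 5.15% of all genes rose and 4.27% fell. The genes called lower were all Osiris genes. Osiris proteins are membrane proteins of the cuticle-forming epithelium, encoded mostly in 1 cluster on 3R, and act in shaping cuticular nanostructures. Taken alone, a split of the list made after its values were seen, 16 of 21 Osiris genes were below 0 and the median was -0.83. Of the 21, 13 lay lower in every mutant pool, where 15.2% of all genes did. Their summed level was 3276, 4315 and 4005 FPKM in mutants, against 9674, 10180 and 5777 FPKM in wild type. Osi8 had 59.5, 78.7 and 67.8 FPKM in mutants and 258, 354 and 140 FPKM in wild type (-1.76 ± 0.35, adjusted P = 0.0421). Osi5, called too, was far less abundant and fell by 1.64. Osi1 had 85.5, 110 and 131 FPKM in mutants and 399, 354 and 210 FPKM in wild type (-1.52 ± 0.29, adjusted P = 0.0381). Osi3 (3R, 6215832 to 6218199), the most abundant of the 4 and not chosen by the rule for named genes, had 635, 812 and 716 FPKM in mutants and 2242, 2648 and 1326 FPKM in wild type (-1.47 ± 0.28). Wild-type pool 3 was the lowest of its genotype in all of them. Each Osiris call was kept only when that pool was left out, and 9 of the 35 genes were then called lower and none higher.

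Osi3 had its peak on the second day. It was under 1 FPKM in wild type at P1 and at P3, and its P1 levels were 51.7, 58.8 and 0.96 FPKM in mutant pools, against 0.25, 0.23 and 0.29 FPKM in wild-type pools. Pools 1 and 2 of the P1 mutants had thus begun to express it and pool 3 had hardly. The P2 change was lower than the P1 change in 14 of the 21 Osiris genes and lower than the P3 change in 7, with none higher in either case. Over all genes 1.53% were lower against P1 and 0.684% against P3. The Osiris set was split off after its values were seen. For Osi8 as well, the P1 excess lay in 2 of the mutant pools (19.4, 23.7 and 1.02 FPKM). The rest of the list, 14 zona pellucida domain and resilin genes, had a median of -0.67 at P2 and 1.01 at P1. Against P1 the P2 change was lower in 8 of the 14 and higher in 2. Against P3 it was lower in 4 and higher in 1. The shift was thus not particular to Osiris genes. Over all 35 apical matrix genes the median was -0.81 at P2, 0.90 at P1 and 0.14 at P3. ect, an ectodermal gene that is in no list and was picked after its values were seen, had the same shape, with 130, 151 and 145 FPKM in mutants against 345, 391 and 225 FPKM in wild type (-1.13 ± 0.22, adjusted P = 0.0381), and its call too was kept only without wild-type pool 3.

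**Figure D4:**
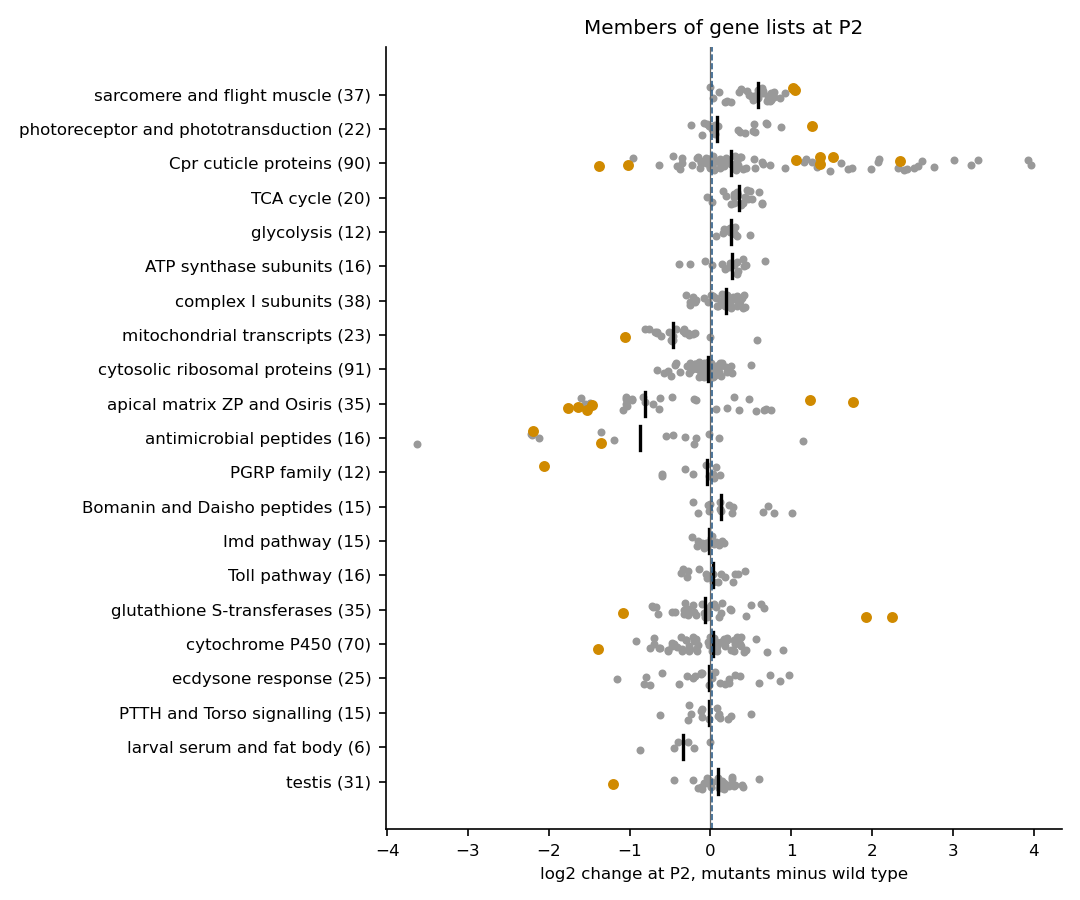
Log2 change at P2 (horizontal axis, mutants minus wild type) of each tested member of 21 gene lists, with the number of members in parentheses. Orange points are called genes, black bars are list medians and the dashed line is the median of all genes (0.01); the sarcomere list lies right of it (0.59), the antimicrobial peptides (-0.87) and the apical matrix genes (-0.81) left of it.

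Antimicrobial peptides were mostly below wild type in mutants, though few passed the test. Antimicrobial peptides are small secreted proteins of the fat body and epithelia, induced through the Imd and Toll branches of NF-kB signalling. Of 16 tested, 14 were below 0 and the median was -0.87, but only 2 were called. Mtk, metchnikowin (2R, 15408846 to 15409113), had 4.11, 2.63 and 3.17 FPKM in mutants and 24.4, 25.0 and 10.4 FPKM in wild type (-2.20 ± 0.36, adjusted P = 0.0302), a call kept only without wild-type pool 3. CecB, a cecropin, had 4.83, 3.5 and 7.0 FPKM in mutants and 14.9, 17.7 and 10.9 FPKM in wild type (-1.36 ± 0.27, adjusted P = 0.0410), and this call was lost in each fit that left out 1 pool. The list summed to 725, 591 and 625 FPKM in mutants and 1003, 935 and 778 FPKM in wild type.

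The widest differences among peptides did not pass the test, and these genes too were picked after their values were seen. DptB, a diptericin, had 1.00, 0.61 and 0.95 FPKM in mutants, against 55.6, 42.7 and 3.86 FPKM in wild type (-3.63 ± 0.97, adjusted P = 0.0739). Dpt, another diptericin, had 47.9, 19.6 and 21.9 FPKM in mutants, against 232, 145 and 66.9 FPKM in wild type (-2.21 ± 0.56, adjusted P = 0.0658). For these genes, for Mtk and for CecB, wild-type pool 3 was the lowest of its genotype. Without that pool 4 peptides were called lower and 1 higher. Drsl3, a drosomycin-like gene, was on the other side, at 172, 151 and 126 FPKM in mutants and 48.1, 57.4 and 105 FPKM in wild type (1.15 ± 0.31, adjusted P = 0.0771).

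Upstream of the peptides few genes passed the test. Rel (3R, 9044183 to 9047977), the NF-kB factor of the Imd pathway, had 14.3, 14.4 and 16.8 FPKM in mutants and 15.1, 15.0 and 15.8 FPKM in wild type, and the pools overlapped (-0.02 ± 0.07, adjusted P = 0.924). That estimate is for the transcript and does not bear on where the protein is. None of 15 Imd pathway genes passed the test at any size, and their median was -0.02. Of 16 Toll pathway genes 3 rose and 3 fell at any size, none past 2-fold, where 5.15% of all genes rose and 4.27% fell. With 1 pool left out no Toll gene passed the test, other than 2 falls without wild-type pool 2. Among 12 peptidoglycan recognition proteins, 3 fell at any size (0 or 1 with a pool left out) and 1 of them was called. That was PGRP-SB1, a secreted amidase that cleaves peptidoglycan, at 5.47, 7.10 and 4.40 FPKM in mutants and 31.7, 31.5 and 18.4 FPKM in wild type (-2.06 ± 0.26, adjusted P = 0.0193), kept only without wild-type pool 3. The 15 Bomanin and Daisho peptides, which answer to Toll, were higher as a sum, with 96.5, 75.1 and 84.2 FPKM in mutants and 53.9, 64.8 and 45.8 FPKM in wild type. None was called, 10 were above 0, the median was 0.13, and 2 rose at any size (0 or 1 with a pool left out). The 12 genes of JAK-STAT signalling and the Turandot family had no call and a median of 0.02.

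Some genes linked to immunity were called higher, from different lists and from the largest rises. Of 5 thioester proteins, complement-like factors that opsonise microbes, 2 rose past 2-fold. Tep1 had 3.74, 3.92 and 4.12 FPKM in mutants and 0.88, 0.63 and 1.05 FPKM in wild type (1.42 ± 0.10, adjusted P = 0.00466), and Tep4 had 6.49, 5.93 and 6.78 FPKM in mutants and 1.96, 1.55 and 1.91 FPKM in wild type (1.40 ± 0.09, adjusted P = 0.00381). Both calls were kept in all 6 fits that left out 1 pool. CR44404, named IBIN in the reference and known as an RNA induced by infection, had 51.4, 37.1 and 58.8 FPKM in mutants and 8.12, 9.94 and 6.71 FPKM in wild type (2.43 ± 0.21, adjusted P = 0.00890), a call lost only without mutant pool 1. SPH93 (2L, 17454263 to 17455923), a serine protease homologue, had 104, 120 and 120 FPKM in mutants and 12.3, 13 and 17 FPKM in wild type (2.95 ± 0.13, adjusted P = 0.00170), kept in all 6 fits. PPO2, a prophenoloxidase made by crystal cells for melanization, had 3.78, 6.80 and 3.56 FPKM in mutants and 0.68, 0.48 and 1.15 FPKM in wild type (1.66 ± 0.25, adjusted P = 0.0259), but this call was lost in each fit that left out 1 pool. It was the 1 call among 10 melanization genes, whose median was 0.03. The 9 hemocyte markers had a median of 0.02 and summed to 291, 269 and 271 FPKM in mutants and 267, 232 and 272 FPKM in wild type.

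Among the largest drops were 2 genes named in the reference for their regulation by STING, the sensor of cyclic dinucleotides; no list of such genes was tested. CG42825, now Srg2, had 1.43, 2.08 and 2.16 FPKM in mutants and 12.3, 10.8 and 13.9 FPKM in wild type (-2.21 ± 0.14, adjusted P = 0.00381), and the call was kept in all 6 such fits. CG33926, now Srg3, had 10.9, 9.17 and 11.9 FPKM in mutants and 32.3, 26.0 and 58.0 FPKM in wild type (-1.69 ± 0.30, adjusted P = 0.0347). CG11671, now Nazo, was picked after its values were seen and had 1.03, 0.63 and 0.74 FPKM in mutants and 2.89, 3.74 and 7.16 FPKM in wild type (-1.57 ± 0.29, adjusted P = 0.0357). In these last 2 genes wild-type pool 3 was the highest, opposite to its place for the antimicrobial peptides, and the calls were lost with any pool left out other than wild-type pool 3 or, for CG33926, wild-type pool 2.

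Several of the largest differences were alike in every pool of a genotype. Klp54D (2R, 17557031 to 17563285), a kinesin-like motor protein, had 11.2, 11 and 10.1 FPKM in mutants, against 0.26, 0.23 and 0.11 FPKM in wild type (3.29 ± 0.08, adjusted P = 0.000494). CG18636 (2L, 14783301 to 14784598) had 1.14, 0.99 and 0.53 FPKM in mutants, against 24.6, 24.1 and 28 FPKM in wild type (-3.83 ± 0.15, adjusted P = 0.00129). CG14715 (3R, 11674221 to 11674923) had 5.56, 4.65 and 4.65 FPKM in mutants, against 42.0, 41.6 and 47.5 FPKM in wild type (-2.91 ± 0.09, adjusted P = 0.000769). These calls were kept in all 6 fits that left out 1 pool.

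Other changes of this kind were in enzymes and matrix proteins. CG4580, named Nepl8 in the reference and of the neprilysin-like metallopeptidases, had 22.1, 27.6 and 22.8 FPKM in mutants and 3.45, 3.41 and 3.07 FPKM in wild type (2.54 ± 0.10, adjusted P = 0.00130). NT5E-2 (2R, 17485002 to 17493169), of the 5'-nucleotidase family, had 56.9, 57.0 and 57.5 FPKM in mutants and 14.2, 13.3 and 15.7 FPKM in wild type (1.92 ± 0.06, adjusted P = 0.000769). LanA, the laminin A chain of basement membrane and picked after its values were seen, had 97.3, 95.1 and 97.7 FPKM in mutants and 47.0, 43.0 and 47.0 FPKM in wild type. Pools of 1 genotype lay close together, and the difference was just past 2-fold (1.07 ± 0.05). Ect3, a beta-galactosidase gene picked in the same way, had 45.7, 47.3 and 48.7 FPKM in mutants and 125, 122 and 118 FPKM in wild type (-1.35 ± 0.04). The calls of these 4 genes were kept in all 6 fits that left out 1 pool.

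Enzymes of detoxification changed in both directions. Of 35 glutathione S-transferases, which couple glutathione to reactive compounds, 2 rose and 1 fell, and at any size 3 rose and 8 fell (2 or 3 and 1 to 5 with a pool left out), where 5.15% of all genes rose and 4.27% fell. GstE1 (2R, 18398393 to 18399223) had 25.2, 21.0 and 27.0 FPKM in mutants and 4.05, 3.84 and 5.19 FPKM in wild type (2.25 ± 0.14, adjusted P = 0.00381). GstD5 (3R, 12375733 to 12376572) had 52.9, 54.0 and 63.4 FPKM in mutants and 15.8, 16.1 and 11.2 FPKM in wild type (1.92 ± 0.16, adjusted P = 0.00829). Both calls were kept in all 6 fits. GstD9, of the same family, fell by 1.08 ± 0.13 (adjusted P = 0.0178), a call kept in only 2 of the 6 fits without 1 pool. Of 70 cytochrome P450 genes 1 was called, Cyp28d1, at 4.80, 4.92 and 5.40 FPKM in mutants and 15.1, 15.5 and 14.1 FPKM in wild type (-1.40 ± 0.07, adjusted P = 0.00194), and at any size 4 rose and 12 fell (0 to 2 and 1 to 5 with a pool left out). CG1444, now spidey, an enzyme of very long chain fatty acid and steroid metabolism active in oenocytes, rose by 1.06 ± 0.07 (adjusted P = 0.00381), and was called in all 6 fits as Cyp28d1 was; the list of 6 oenocyte genes it comes from had a median of 0.34.

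Further large changes concerned genes of less certain role. CG32368, a long non-coding RNA in the reference, had 1.34, 1.91 and 2.64 FPKM in mutants and 41.5, 27.5 and 88.0 FPKM in wild type, and the drop of 4.03 was the largest of all calls, though kept only without wild-type pool 2 or 3. CG13982 (-3.26), CG30083 (-3.09), CG4375 (-2.34) and CG7763 (-1.5) fell and were called in all 6 fits that left out 1 pool. drd, which acts in forming the cuticle and midgut of the adult, rose by 1.87 (adjusted P = 0.0416), a call lost in each fit that left out 1 pool. iotaTry, a trypsin, rose by 1.91 and was called in all 6 of them. scpr-C, scpr-A and scpr-B lie together on 3R and are close copies, so the rise of scpr-C (2.06, adjusted P = 0.0232) is uncertain as to which copy it belongs to, and it was kept only without wild-type pool 3. Strand use in counting is not stated, so for overlapping genes the reads cannot be told apart by strand.

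**Figure D5:**
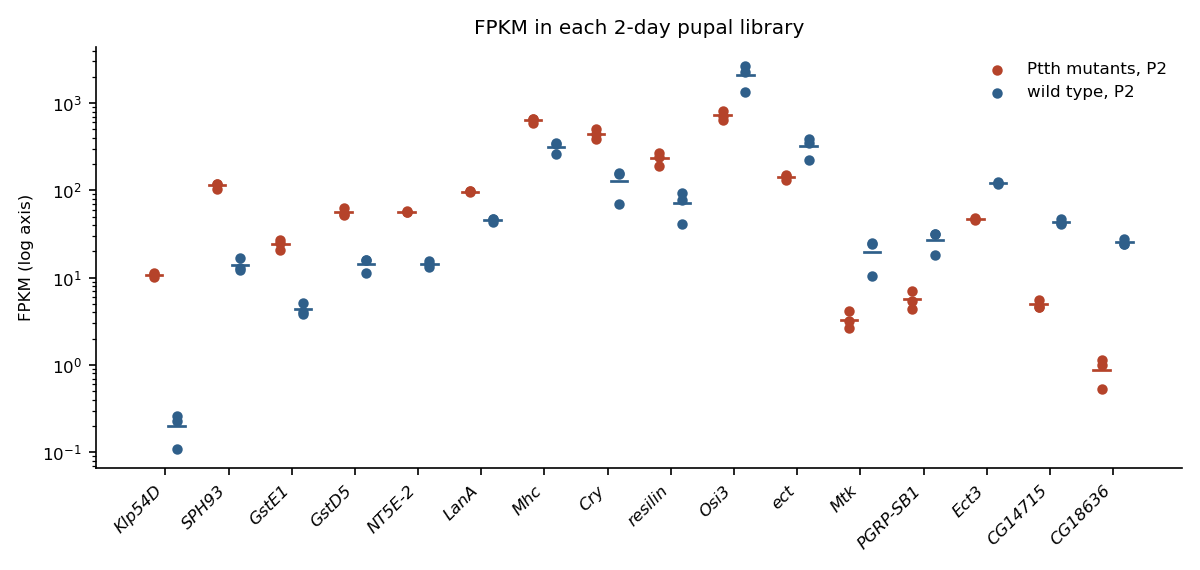
FPKM (log axis) of 16 genes in each of the 6 libraries at P2; points are pools and lines are means (n = 3 per genotype), Ptth mutants left and wild type right within each gene. Pools do not overlap for any gene drawn; wild-type pools spread widely for Cry, Osi3 and Mtk and lie close together for LanA, Ect3 and CG14715.

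Most of the called genes were also called in the same direction at 1 or more of the 7 other stages. The share of all genes called at any of those stages was not counted, and at L3E alone 10.4% of all genes rose and 6.78% fell. Of the 71 genes that rose at P2, 31 also rose at P1 and 29 at P3, where 1.51% and 0.651% of all genes rose; 4 rose at every other stage, namely Klp54D, Tep4, CR44417 and CG3397, and 25 rose at no other stage. Of the 73 that fell, 28 also fell at P1 and 36 at P3, where 0.871% and 2.47% of all genes fell. CG14715, Uhg1 and CG30054 fell at every stage and 14 fell at no other stage. Calls in the opposite direction were most frequent in larvae. Of the 71, 20 rose and 7 fell at L3E, and 19 rose and 5 fell at L3L. Of the 73, 18 fell and 6 rose at L3E, and 16 fell and 1 rose at L3L. In adults at eclosion 9 of the 71 rose and 10 of the 73 fell, where 32 (0.261%) and 23 (0.187%) of all genes did. SPH93 averaged 156 FPKM in mutants and 7.52 FPKM in wild type at P1, and 89.9 FPKM in mutants and 7.95 FPKM in wild type at P3. The stages share no libraries, so each count is a separate measurement.

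Markers of other tissues and of sex were read in the same pools. The long non-coding RNA roX1, which marks male cells through dosage compensation of the X chromosome, had 29.8, 44.0 and 23.9 FPKM in mutants and 33.4, 55.4 and 39.6 FPKM in wild type, and the pools overlapped (-0.40 ± 0.28, adjusted P = 0.419). The 31 testis genes summed to 2990, 4043 and 2547 FPKM in mutants and 2369, 3247 and 2913 FPKM in wild type, with 1 called lower, achi (-1.20). Pool 2 was the highest of its genotype for both readouts, and the part of a differing share of males in any result was not tested. Larval serum and fat body genes (6 tested) were all below 0, with a median of -0.34. At any size 2 fell (0 or 1 with a pool left out), where 4.27% of all genes did. The 9 salivary glue genes, products of the larval gland, summed to at most 0.32 FPKM in any of the 6 pools. In all, 48 gene lists were read, and those not described here held at most 1 call in a direction.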

How the data were processed

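Whole-animal poly(A) RNA of 48 pools was sequenced by the submitters, and the authors deposited 1 table of FPKM values per gene and library; every column was mapped to a sample by its label. The labels' processing notes name HISAT2 (2.0.5), featureCounts (1.5.0-p3) and the BDGP6 build, whereas the study's methods name STAR, htseq-count and DESeq2, and which of them made the table was not settled. The FPKM values could be turned back into whole reads for 100.0% of values (within 0.001 read), and the sizes the authors divided by matched size factors of the median-of-ratios kind, so the values are scaled by library composition as well as depth.

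Genes with at least 3 FPKM in any library were kept. The 3 mutant and 3 wild-type P2 libraries were fitted with limma (3.58.1, R 4.3.3, trended variance) on log2(FPKM + 1), with Benjamini-Hochberg adjustment over all genes. A gene was called at an adjusted p under 0.05 and above 2-fold. Fold changes on this scale understate those of low genes. Changes at P2 against those at P1 and P3 came from 1 limma fit of 48 libraries, with 1 spread per gene over all stages. Error values are SE for log2 changes and SD for means. The code was tested on simulated data.

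Named genes were Ptth, tor, roX1 and Rel; the 15 largest rises and 15 largest drops among called genes that averaged 10 FPKM or more in one of the genotypes and whose libraries did not overlap; and up to 4 called members of each list. For some lists, members passing the test at any size were described too, and not all such members were named. The members and gene lists were chosen with earlier results of these data known. Alternatives were another pseudocount, no filter, a filter on P2 libraries, quantile scaling, limma-voom on recovered reads, a fit of all libraries, a replicate block, a 1.5-fold limit and leaving out each library. The table's gene coordinates equal those of the reference for 98.3% of genes found in it, and reference symbols are given where they differ. No sequences were analysed here.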

Additional observations from a re-analysis of the deposited data

Results flagged for a closer look

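For genes named for their change at P2, the change in Ptth mutants against wild type was compared with that at P1 and P3 in 1 limma fit of 48 libraries, and those whose change differed by more than 2-fold at an adjusted p under 0.05 are given as differences of log2 changes. Against P1, the change at P2 was higher for resilin (2.78), Cpr100A (2.56), Cpr64Ad (2.39), Cry (2.09), Acp1 (2.04), Cpr47Ef (2.02), CG8736 (1.97), drd (1.88), PPO2 (1.43), Tep1 (1.34) and Obp56d (1.33). It was lower for Osi8 (-4.57), Osi5 (-2.22), NT5E-2 (-1.84), CG13982 (-1.44), Cpr65Eb (-1.41), Mhc (-1.38), SPH93 (-1.26) and Osi1 (-1.21).

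Against P3, the change at P2 was higher for Cpr47Ef (1.87), Cry (1.87), drd (1.66), resilin (1.61), scpr-C (1.6), CG8736 (1.47), NT5E-2 (1.44), Acp1 (1.37) and Cpr100A (1.10). It was lower for Osi1 (-1.58), Cpr65Eb (-1.38), CG30083 (-1.30) and CG18636 (-1.12). NT5E-2 thus had a smaller change than at P1 and a larger one than at P3. With groups of 3, single pools were not tested as outliers. The fit of 48 libraries takes 1 spread per gene over all stages, so its p values do not reflect the spread at P2 alone. Against P1, the SE of the difference was below that of the P2 change for Cpr47Ef (0.31 against 0.46) and above it for Mhc (0.17 against 0.13).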

How the results depend on the processing

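The count of 144 genes was 226 with a pseudocount of 0.1, 305 by limma-voom, 258 in a fit of all 48 libraries, 408 with a 1.5-fold limit, 88 with a replicate block and 44 to 120 when 1 library was left out (44, 72 and 56 without mutant pools 1, 2 and 3, and 64, 120 and 116 without wild-type pools 1, 2 and 3). The 71 rises were 120 with a pseudocount of 0.1, 107 with the filter on P2 libraries, 186 by limma-voom, 150 in the fit of all libraries, 205 with the 1.5-fold limit, 45 with the replicate block and 20 to 69 without 1 library. The 73 drops were 119 by limma-voom, 203 with the 1.5-fold limit, 43 with the replicate block and 24 to 78 without 1 library. Deviations of same-numbered pools correlated at 0.269, 0.387 and -0.167, and those of other pairs of pools at -0.503 to 0.312. With 3 pools a genotype this cannot show whether replicate numbers pair the libraries, and the block is given as a count only.

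The 370 genes whose change differed from that at P1 were 738 at 1.5-fold. The 285 that differed from that at P3 were 174 with a pseudocount of 0.1, 86 in a fit of 12 libraries, 954 at 1.5-fold and 156 to 654 without 1 library (156 without wild-type pool 1, 162 without mutant pool 2, 483 without wild-type pool 2 and 654 without mutant pool 3). The difference in position along the wild-type course stayed between 0.0631 and 0.0978. Of 50 named genes called, 46 to 50 stayed called under the other pseudocount, filters, scaling, limma-voom and the fit of all libraries, 30 with the replicate block and 18 to 31 without 1 library; none changed direction. The cause of these shifts was not tested. Genes below the filter of 3 FPKM, such as tor, rest on the fewest reads and were not tested.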

Other observations

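Called genes were spread unevenly over the chromosomes. On 2L, 23 genes rose and 22 fell of 2266 tested (1.99%), on 2R 19 and 19 of 2493 (1.52%), on 3L 11 and 12 of 2424 (0.949%) and on 3R 12 and 15 of 3044 (0.887%). On the X, 3 rose and 3 fell of 1923 (0.312%). Within 5 Mb of Ptth on 2L, 8 rose and 6 fell of 610 (2.30%), and within 2 Mb 1 rose and 3 fell of 276 (1.45%). These shares were not tested.

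Cell cycle genes held no call at P2, where the 23 tested had a median log2 change of 0.10, against -0.53 at P1 and 0.07 at P3. For 5 of them the change at P2 was higher than that at P1 in the fit of 48 libraries, where 1.48% of all genes were. Summed levels at P2 were 143, 157 and 156 FPKM in mutants and 140, 159 and 148 FPKM in wild type. Hsp70Bb, a heat-shock chaperone picked after its values were seen, had 1.45, 1.80 and 24.6 FPKM in mutants and 1.53, 2.31 and 1.13 FPKM in wild type, with mutant pool 3 apart from the rest.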
